A study of Mus musculus with 12 samples.

Results

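The genes described here encode 10 enzymes by which hepatocytes dispose of nitrogen and handle glucose. Cps1, Otc, Ass1, Asl and Arg1 form the urea cycle, Tat degrades tyrosine, Pck1, Fbp1 and G6pc drive gluconeogenesis, and Gys2 is the liver glycogen synthase. They were chosen by name from the 38127 genes listed in each count table by their enzyme function, with earlier results of these data known. They were followed in RNA-seq libraries of sorted C57BL/6 fetal liver cells, with 3 replicates in each of 4 groups. Cells negative for Ter119 and CD45, which mark erythroblasts and leukocytes, were sorted at embryonic day (E) 14.5 as CD54+CD31- cells, as CD54+CD31+ cells (CD31+ below), or as CD54-CD31-Kit+CD24+ cells (P2 below), and at E18.5 as CD54+CD31- cells. All 12 libraries came from unmanipulated embryos, so no group carries a transgene or a treatment. The labels describe the replicates of a group as biological. The study gives its E14.5 RNA-seq replicates as independent litters, and the source of the E18.5 replicates is not given in the sources used here. P-values therefore measure the spread between these libraries. CD54 is an adhesion molecule (Icam1), and CD31 (Pecam1) marks endothelium.

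The urea cycle converts ammonia, released when amino acids are broken down, into urea. Cps1 and Otc work in the mitochondrion and make citrulline, Ass1 and Asl convert citrulline to arginine in the cytosol, and Arg1 splits arginine into urea and ornithine. Gluconeogenesis builds glucose from lactate and amino acids. Pck1 supplies phosphoenolpyruvate, Fbp1 removes a phosphate from fructose bisphosphate, and G6pc frees glucose in the last step. Before birth the placenta supplies glucose and clears nitrogen, and in rodents several of these enzymes are known to accumulate late in gestation and around birth. Gys2 stores glucose as glycogen, which the fetal liver lays down before birth.

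Promoter sequence is shown for 4 members that span the range of patterns described below. These are G6pc and Fbp1, which had the largest increases with age, Pck1, which was low at both ages, and Otc, which fell. The sequences are the 250 bases before the RefSeq start of each gene on its own strand in GRCm38.p6, which are chr11:101367466-101367715 (plus strand), chr13:62888283-62888532 (minus strand), chr2:173152823-173153072 (plus strand) and chrX:10252055-10252304 (plus strand). GENCODE vM21 starts G6pc at 101367561 and Pck1 at 173153048, so the end of each of these windows lies inside the gene as placed there. For G6pc that part holds the TATA box and the forkhead match given below. They are written 5′ to 3′, and capitals mark matches on either strand to the motifs given below.
G6pc promoter: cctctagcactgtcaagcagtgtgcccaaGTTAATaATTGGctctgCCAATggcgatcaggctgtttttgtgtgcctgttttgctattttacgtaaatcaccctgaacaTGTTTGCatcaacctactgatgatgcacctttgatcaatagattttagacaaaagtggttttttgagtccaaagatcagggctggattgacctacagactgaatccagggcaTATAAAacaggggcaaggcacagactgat
Fbp1 promoter: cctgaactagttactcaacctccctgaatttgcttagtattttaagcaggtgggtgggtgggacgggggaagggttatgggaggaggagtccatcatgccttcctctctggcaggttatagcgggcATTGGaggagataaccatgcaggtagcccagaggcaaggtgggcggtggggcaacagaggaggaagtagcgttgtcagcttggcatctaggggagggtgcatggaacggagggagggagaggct
Pck1 promoter: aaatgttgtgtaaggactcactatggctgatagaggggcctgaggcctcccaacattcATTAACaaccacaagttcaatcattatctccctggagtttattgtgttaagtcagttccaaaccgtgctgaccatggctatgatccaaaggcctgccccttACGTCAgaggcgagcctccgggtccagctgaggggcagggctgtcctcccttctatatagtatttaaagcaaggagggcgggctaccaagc
Otc promoter: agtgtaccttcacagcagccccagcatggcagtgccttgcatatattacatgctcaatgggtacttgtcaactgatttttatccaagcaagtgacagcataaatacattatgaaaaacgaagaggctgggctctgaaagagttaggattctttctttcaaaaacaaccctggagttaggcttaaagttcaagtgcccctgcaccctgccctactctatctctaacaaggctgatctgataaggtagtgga

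Motifs of general promoters and of factors known from liver were searched on both strands in the 250 bases of all 32851 promoters of the table. The G6pc promoter held the TATA box, TATAAA, starting 29 bases before the start site, which was present in 12.4% of promoters. It also held the forkhead variant TGTTTGC starting 141 bases before the start (4.30% of promoters), the HNF1 core GTTAAT at 221 bases (6.43% of promoters), and CCAAT, present in 33.8% of promoters, on each strand at 204 and 214 bases. The Pck1 promoter held ACGTCA, the core of a cAMP response element, 91 bases before the start (6.47% of promoters), and the HNF1 core on the reverse strand at 192 bases. Fbp1 held a single CCAAT box on the reverse strand, 124 bases before the start, and Otc held no match. Of the other members with a sequence, Tat held the CCAAT box at 3 places and Ass1 held no match. The remaining motifs were found in none of these 6 promoters. They are the full cAMP response element TGACGTCA, which contains the core above (1.55% of promoters), the forkhead motif TGTTTAC (3.17%), the C/EBP motif TTGCNNAA (9.56%), the glucocorticoid receptor motif AGAACA (16.1%) and the HNF4 motif CAAAGTCCA (0.384%). These matches describe letters in a window and not binding.

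Library depth ranged from 40714017 to 64368883 counts. Levels are given as library-size-normalized counts (CPM) with sizes scaled by the trimmed mean of M-values (TMM). Among the E14.5 groups the sorting markers followed the labels. Icam1 averaged 51.9 CPM in E14.5 CD54+CD31- cells, 118 in CD31+ and 2.56 in P2 cells, Pecam1 was highest in CD31+ cells (591 CPM) and Kit in P2 cells (323 CPM). In CD54+CD31- cells Pecam1 was at 21.3, 19.9 and 13.2 CPM at E18.5, against a mean of 6.08 CPM at E14.5. Icam1 was also higher at E18.5, with a log2 fold change of 1.96 without E18.5 replicate 1. The hepatocyte product Alb stood at 40966, 46629 and 46678 CPM in E14.5 CD54+CD31- cells and between 377 and 485 CPM in the other E14.5 libraries. At E18.5 Alb was at 2405 CPM in replicate 1 against 26609 and 34537 CPM in replicates 2 and 3. The 12 hepatocyte markers summed to between 82156 and 94572 CPM at E14.5, and to 5701, 50504 and 65788 CPM in E18.5 replicates 1, 2 and 3. In the same E18.5 libraries 13 lung epithelium markers summed to 24978, 11661 and 11735 CPM, against 166 to 180 CPM at E14.5, with Sftpc, the surfactant protein of alveolar cells, at 12377, 5095 and 5404 CPM against at most 1.73 CPM. Of these markers 12 of 13 were higher at E18.5, as were 9 of 9 mesenchyme, 8 of 8 endothelium and 6 of 6 tested heart markers, 2 of 3 tested kidney tubule and 2 of 3 tested intestine markers, 2 of 10 macrophage and 2 of 8 granulocyte markers, whereas 5 of 7 tested erythroid, 4 of 11 tested hepatocyte markers and the third intestine marker, Vil1, were lower. Without replicate 1, 4 hepatocyte markers were higher and 6 lower, 7 of 7 erythroid markers were lower, 3 macrophage and 3 of 4 tested intestine markers were higher, and the counts of the other lists were the same. Of all genes tested, 35.9% were called higher and 33.5% lower, and 36.8% and 35.9% without replicate 1. With all libraries the hepatocyte, macrophage and granulocyte counts were thus near or below the shares of all genes. The mesenchyme markers summed to 124 to 244 CPM at E14.5 and 3988 to 4412 CPM at E18.5, the endothelium markers to 38.8 to 66.9 and 175 to 224 CPM, the heart markers to 0.592 to 2.01 and 165 to 360 CPM, and the kidney tubule markers to 9.32 to 11.3 and 63.4 to 101 CPM, mostly the receptor gene Lrp2 (87.5, 52.0 and 57.1 CPM). Other sums were lower at E18.5 or overlapped, with the intestine markers at 8.69 to 10.6 CPM at E14.5 and 3.89 to 8.48 CPM at E18.5, the erythroid markers at 354 to 604 and 120.2 to 221 CPM, the macrophage markers at 146 to 255 and 63.7 to 201 CPM, and the granulocyte markers at 9.90 to 129.7 and 23.7 to 107 CPM. The E18.5 libraries thus held transcripts of lung and other tissues beside those of hepatocytes, and replicate 1 stood apart from the other two. Fold changes and counts of called genes on age are therefore given with and without that library. In bulk RNA, fewer hepatocytes and less RNA per hepatocyte cannot be told apart.

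In E14.5 CD54+CD31- cells the enzymes differed widely in level. Scaled to exon length, Gys2 was the highest at 125 ± 4.46 CPM per kb (SD, n = 3), followed by Ass1 at 92.5 ± 5.39, Otc at 50.8 ± 2.54, Asl at 30.3 ± 1.55, Arg1 at 30.0 ± 1.39 and Cps1 at 5.91 ± 0.393 CPM per kb. Asl and Arg1 overlapped, while every other neighbour in this order was separated. The gluconeogenic enzymes and Tat lay far below. Fbp1 was at 1.21 ± 0.205, Pck1 at 0.933 ± 0.194 and Tat at 0.810 ± 0.0645 CPM per kb, with overlapping libraries, and G6pc was at 0.0122 ± 0.0117 CPM per kb. Ass1, Otc, Asl and Arg1 were thus above Cps1, which feeds the cycle, in every E14.5 library, and glycogen synthase was far above G6pc.

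**Figure D1:**
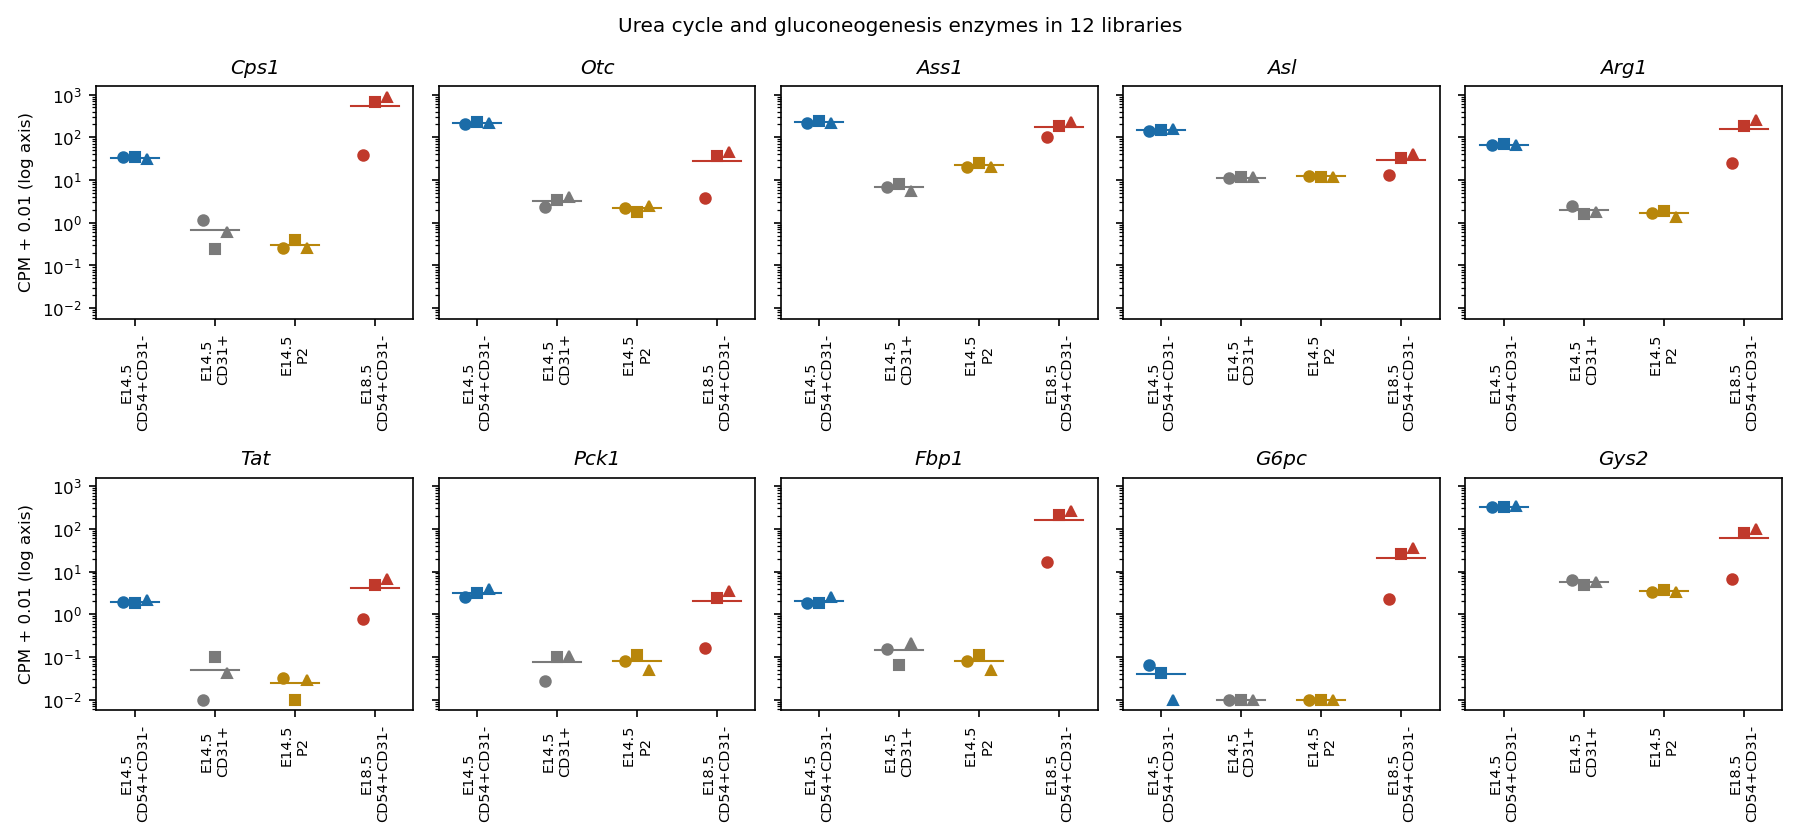
CPM of each enzyme plus 0.01 on a log axis in all 12 libraries, by group, with circles, squares and triangles for replicates 1, 2 and 3 and lines for group means. The E14.5 CD54+CD31- libraries lie close together, and E18.5 replicate 1 lies below replicates 2 and 3 in every panel.

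With age, Cps1, Fbp1 and G6pc rose and Otc, Asl and Gys2 fell in CD54+CD31- cells, while Ass1, Arg1, Tat and Pck1 did not pass the test with all 6 libraries (edgeR quasi-likelihood test, Benjamini-Hochberg adjusted p below 0.05 over 15863 genes). Gene positions below are those of GENCODE vM21 on GRCm38. In this comparison 69.4% of all genes tested were called, 35.9% higher and 33.5% lower, so that 3 of 10 members higher and 3 lower is not above the background. The median log2 fold change was 0.51 over the members and 0.03 over all genes. Without E18.5 replicate 1, Arg1 and Tat were also called higher, which made 5 members higher and 3 lower beside 36.8% and 35.9% of all genes and 72.7% called in either direction. In CPM, the libraries of 3 members were higher and of 3 lower without overlap, and those of 34.8% and 43.0% of all genes.

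Cps1 (chr1:67123026-67231259), the mitochondrial enzyme that fixes ammonia, was at 33.8, 34.3 and 30.3 CPM at E14.5 and at 38.0, 652 and 897 CPM at E18.5. All 3 E18.5 libraries were above all E14.5 libraries, replicate 1 only just. Its log2 fold change was 4.18 ± 1.02 (SE, adjusted p = 0.00922), and 4.73 ± 0.15 without E18.5 replicate 1 (adjusted p = 5.38e-08).

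Otc (chrX:10252305-10321024), which joins the product of Cps1 to ornithine, moved the other way. It was at 203, 223 and 220 CPM at E14.5 and at 3.84, 36.4 and 44.5 CPM at E18.5, with no overlap. The log2 fold change was -2.76 ± 0.77 (adjusted p = 0.0167), or -2.25 ± 0.11 without replicate 1 (adjusted p = 3.95e-07).

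Asl (chr5:130011258-130029247), the argininosuccinate lyase of the cytosolic arm, also fell. It went from 138, 149 and 152 CPM to 13.3, 32.8 and 40.9 CPM, without overlap. Its log2 fold change was -2.16 ± 0.38 (adjusted p = 0.00209), or -1.82 ± 0.11 without replicate 1.

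Ass1 (chr2:31470207-31520672), which precedes Asl in the cycle, was at 219, 238 and 213 CPM at E14.5 and at 99.5, 179 and 232 CPM at E18.5. The ages overlapped, since replicate 3 at E18.5 reached the E14.5 range. The log2 fold change of -0.21 ± 0.28 did not pass the test (adjusted p = 0.526) and was 0.05 ± 0.12 without replicate 1 (adjusted p = 0.721).

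Arg1 (chr10:24915221-24927484), the arginase that releases urea, was at 65.8, 70.2 and 64.3 CPM at E14.5 and at 24.9, 185 and 257 CPM at E18.5. Replicates 2 and 3 lay above the E14.5 libraries and replicate 1 below them. Its log2 fold change was 1.395 ± 0.71 with all libraries (adjusted p = 0.120) and 1.90 ± 0.13 without replicate 1 (adjusted p = 3.15e-06).

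Among the glucose-producing enzymes, Fbp1 (chr13:62864753-62888282) went from 1.87, 1.86 and 2.47 CPM to 16.6, 205 and 263 CPM, so that even replicate 1 was well above E14.5. The log2 fold change was 6.46 ± 1.05 (adjusted p = 0.00149), or 6.98 ± 0.16 without replicate 1 (adjusted p = 9.59e-09).

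G6pc (chr11:101367561-101377903), which completes glucose release, had 2, 1 and 0 counts in the E14.5 CD54+CD31- libraries and 149, 1937 and 2512 counts at E18.5. These are 2.31, 25.1 and 34.8 CPM at E18.5, while none of the 6 CD31+ and P2 libraries had a count. Summed over libraries, the normalized ratio of E18.5 to E14.5 was 771, with an exact 95% counting interval of 264 to 3738 that covers counting error only. The increase passed the test with all libraries (adjusted p = 0.00119) and without replicate 1 (adjusted p = 7.71e-08).

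Pck1 (chr2:173153048-173159273), which is rate-limiting for gluconeogenesis in adult liver, did not pass the test. It was at 2.55, 3.18 and 3.87 CPM at E14.5 and at 0.155, 2.41 and 3.49 CPM at E18.5, with overlap. Its log2 fold change was -0.49 ± 0.85 (adjusted p = 0.628), and 0.05 ± 0.26 without replicate 1 (adjusted p = 0.874).

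Tat (chr8:109990437-109999803), the tyrosine aminotransferase known as a marker of late hepatocyte maturation, was at 1.90, 1.83 and 2.12 CPM at E14.5 and at 0.759, 4.81 and 6.63 CPM at E18.5. Only replicate 1 lay below the E14.5 libraries. The log2 fold change was 1.24 ± 0.68 (adjusted p = 0.146), or 1.72 ± 0.22 without replicate 1 (adjusted p = 0.000115).

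Gys2 (chr6:142422613-142473109) was the member with the highest level per length at E14.5 and fell with age, from 322, 327 and 344 CPM to 6.58, 78.4 and 100 CPM, without overlap. Its log2 fold change was -2.25 ± 0.83 (adjusted p = 0.0461) with all libraries and -1.72 ± 0.12 without replicate 1 (adjusted p = 2.69e-06). The call with all libraries was marginal. It was lost when E14.5 replicate 1, 2 or 3 or E18.5 replicate 2 was left out (adjusted p = 0.0975, 0.0917, 0.101 and 0.0871).

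**Figure D2:**
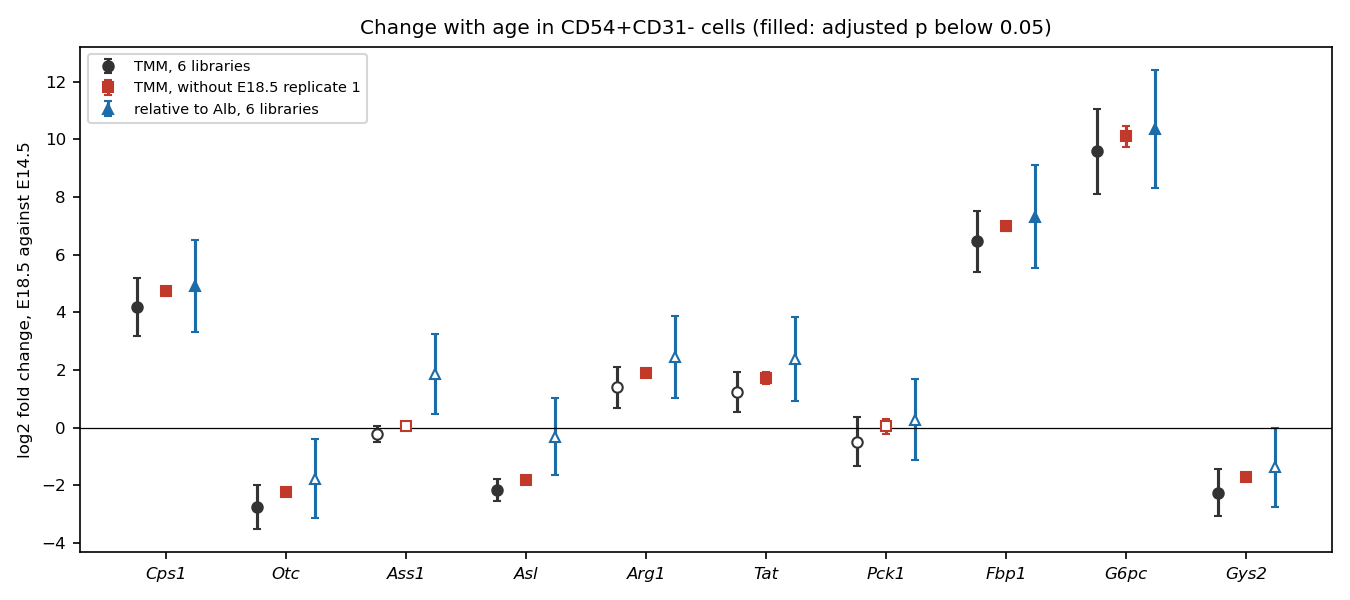
Log2 fold change of each enzyme between E18.5 and E14.5 CD54+CD31- cells with its SE, for 6 TMM-scaled libraries (black circles), without E18.5 replicate 1 (red squares) and with Alb as the library scale (blue triangles), filled where the adjusted p was below 0.05. Cps1, Fbp1 and G6pc are filled and above 0 in all 3 fits, and leaving out replicate 1 shortens the error bars.

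The order of the enzymes changed accordingly. At E18.5 Cps1 and Fbp1 led with 95.2 ± 79.7 and 94.9 ± 75.6 CPM per kb (SD, n = 3), ahead of Ass1 at 70.6 ± 27.7, Arg1 at 69.9 ± 53.4, Gys2 at 23.2 ± 18.4, G6pc at 8.58 ± 6.91, Otc at 6.66 ± 5.07, Asl at 6.00 ± 2.94, Tat at 1.69 ± 1.25 and Pck1 at 0.588 ± 0.496 CPM per kb. Each neighbour in this order overlapped the next over all 3 libraries. In replicates 2 and 3 alone, Cps1 overlapped Fbp1, Ass1 overlapped Arg1 and G6pc overlapped Otc, and the other neighbours were separated. In the libraries themselves, all 10 enzymes were lower in replicate 1 than in replicates 2 and 3, but not by the same factor. Relative to the mean of replicates 2 and 3, replicate 1 held 4.91% of Cps1, 5.25% of Pck1, 7.09% of Fbp1, 7.37% of Gys2, 7.71% of G6pc, 9.49% of Otc, 11.3% of Arg1 and 13.3% of Tat, which bracket the 7.87% of Alb. Asl at 36.0% and Ass1 at 48.4% stood apart from the other members. The surfactant gene Sftpc was at 236% in the same measure and the collagen gene Col1a1 at 107%. Their part in the levels of Asl and Ass1 was not tested.

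**Figure D3:**
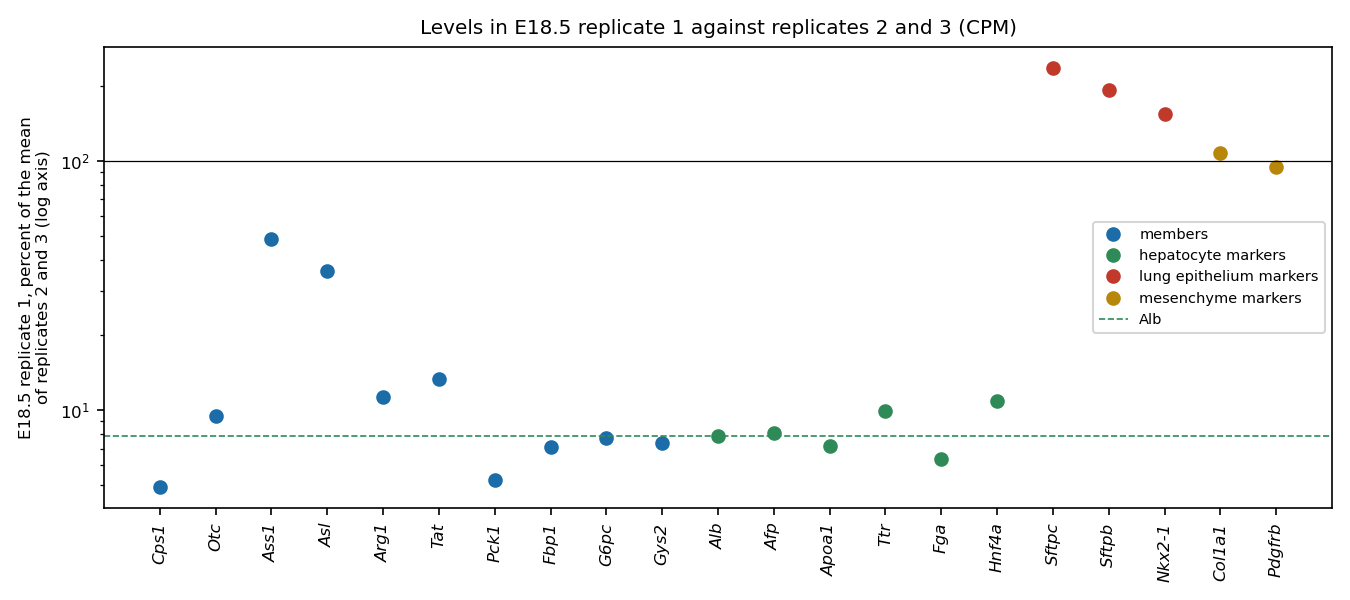
Level in E18.5 replicate 1 as a percent of the mean of replicates 2 and 3 (CPM, log axis) for the 10 enzymes, 6 hepatocyte markers, 3 lung epithelium markers and 2 mesenchyme markers. Most enzymes lie near the dashed line of Alb at 7.87%, Asl and Ass1 lie above it, and the lung markers lie above 100%.

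Counts were next set against Alb counts of the same library. By this measure 8 of 10 members varied less between the E18.5 libraries than in CPM, the exceptions being Ass1 and Asl. Per 1000 Alb counts, G6pc was at 0.00138, 0.000675 and 0 at E14.5 and at 0.959, 0.942 and 1.01 at E18.5, and Fbp1 was at 0.0456, 0.0398 and 0.0529 against 6.89, 7.71 and 7.60. Thus the highest and lowest E18.5 library differed by 1.07 times for G6pc and 1.12 times for Fbp1, compared with 15.1 and 15.8 times in CPM. Cps1 was at 0.825, 0.736 and 0.649 per 1000 Alb counts at E14.5 and at 15.8, 24.5 and 26.0 at E18.5, a 30.0-fold higher mean. Arg1 was at 1.61, 1.51 and 1.38 at E14.5 against 10.3, 6.96 and 7.45 at E18.5, and Tat at 0.0463, 0.0392 and 0.0455 against 0.315, 0.181 and 0.192. For both, all E18.5 libraries were above all E14.5 libraries, including replicate 1, with means 5.51 and 5.26 times higher.

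Otc and Gys2 had lower ratios to Alb at E18.5. Otc was at 4.96, 4.79 and 4.72 per 1000 Alb counts at E14.5 and at 1.60, 1.37 and 1.29 at E18.5, and Gys2 at 7.85, 7.01 and 7.37 against 2.73, 2.95 and 2.90. Their means were 3.40 and 2.59 times higher at E14.5. Asl overlapped, at 3.37, 3.18 and 3.26 against 5.52, 1.23 and 1.18, with replicate 1 above and replicates 2 and 3 below the E14.5 libraries. Ass1 was at 5.34, 5.10 and 4.56 against 41.4, 6.73 and 6.73, so that it was higher in each E18.5 library but by very different amounts. Pck1 overlapped, at 0.0622, 0.0682 and 0.0830 against 0.0644, 0.0905 and 0.101.

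In all, the ratios of 6 members were higher and of 2 members lower at E18.5 without overlap, whereas 49.8% of all genes tested had higher and 1.99% lower ratios without overlap. Lower ratios were not particular to members. The E18.5 mean was 0.348 of the E14.5 mean for Afp, 0.421 for Hnf4a, 0.579 for Apoa1 and 0.780 for Ttr, without overlap. It was 0.294 for Otc and 0.386 for Gys2. For Ahsg and Fga it was 2.68 and 1.80 times the E14.5 mean, also without overlap. In an exact permutation test with 3 against 3 libraries p cannot be below 0.1, which was the two-sided value for Cps1, Otc, Ass1, Arg1, Tat, Fbp1 and Gys2. With Alb as the library scale in edgeR, Cps1 (log2 fold change 4.91 ± 1.59, adjusted p = 0.0127), Fbp1 (7.32 ± 1.78, adjusted p = 0.000703) and G6pc (adjusted p = 3.28e-05) were called higher and no member lower, also at an unadjusted p below 0.05, with 28.5% of all genes called, 28.4% higher and 0.132% lower. The median log2 fold change of all genes on this scale was 2.64, and 2.13 over the members. Without replicate 1, 6 members were called higher and 3 lower on this scale, beside 44.3% and 20.8% of all genes and 65.0% in either direction, and the median of all genes was 0.42. Of 11 tested hepatocyte markers, 4 were called higher and 6 lower in that fit. When E14.5 replicate 1, 2 or 3 was left out, only G6pc was called higher (adjusted p of Cps1 0.164 to 0.203 and of Fbp1 0.0674 to 0.0821).

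**Figure D4:**
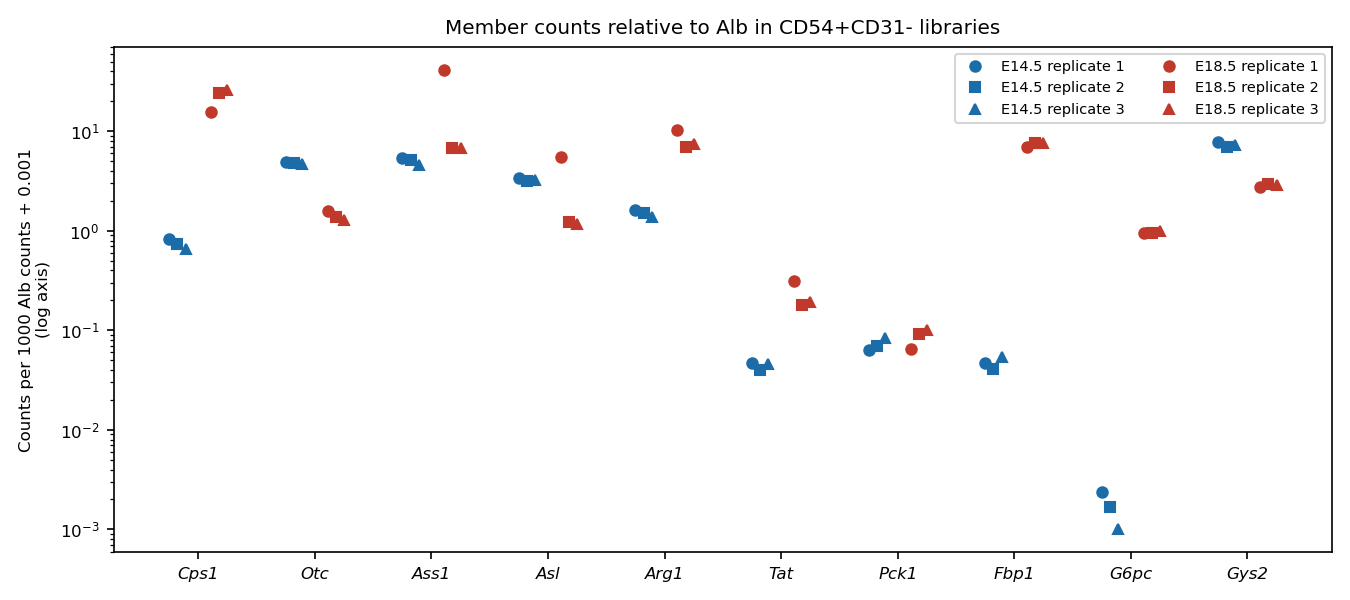
Counts of each enzyme per 1000 Alb counts plus 0.001 on a log axis in the E14.5 (blue) and E18.5 (red) CD54+CD31- libraries. The E18.5 libraries lie together for G6pc, Fbp1, Gys2 and Otc, and replicate 1 lies apart for Ass1 and Asl.

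Ratios between members within a library need neither Alb nor a library scale. They were formed after the values had been seen, so they are given without a test. There were 0.166, 0.154 and 0.138 counts of Cps1 per count of Otc at E14.5, and 9.90, 17.9 and 20.2 at E18.5. Cps1 thus had fewer counts than Otc in each E14.5 library and more in each E18.5 library, and the mean ratio was 105 times higher at E18.5. Fbp1 counts per Gys2 count were 0.00581, 0.00568 and 0.00717 at E14.5 and 2.52, 2.62 and 2.63 at E18.5. This ratio differed little among the E18.5 libraries although the levels of both genes in CPM differed by more than an order of magnitude. G6pc counts per Fbp1 count were 0.139, 0.122 and 0.132 at E18.5, and Fbp1 counts per Pck1 count were 0.733, 0.584 and 0.637 at E14.5 and 107, 85.3 and 75.3 at E18.5. Within the cytosolic arm, Ass1 counts per Asl count were 1.59, 1.60 and 1.397 at E14.5 and 7.50, 5.46 and 5.69 at E18.5, and Arg1 counts per Asl count were 0.477, 0.473 and 0.422 against 1.88, 5.64 and 6.29.

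At E14.5 the enzymes were concentrated in CD54+CD31- cells. All 9 members that could be tested were higher there than in CD31+ cells, in which comparison 65.6% of 15461 genes were called, 34.0% higher and 31.7% lower. The log2 fold changes were 6.06 ± 0.20 for Otc, 5.88 ± 0.12 for Gys2, 5.64 ± 0.40 for Cps1, 5.52 ± 0.71 for Tat, 5.51 ± 0.51 for Pck1, 5.12 ± 0.17 for Arg1, 5.05 ± 0.16 for Ass1, 3.91 ± 0.51 for Fbp1 and 3.69 ± 0.08 for Asl, with adjusted p of at most 6.20e-05. Alb differed by 6.56 ± 0.11. G6pc had too few counts to be tested.

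All 9 were also higher than in P2 cells, where 70.0% of genes were called, 36.1% higher and 33.8% lower. Cps1 was 6.78 ± 0.44, Otc 6.65 ± 0.21, Gys2 6.60 ± 0.12, Pck1 5.48 ± 0.52, Arg1 5.36 ± 0.18, Fbp1 4.85 ± 0.56, Asl 3.61 ± 0.08 and Ass1 3.37 ± 0.15 higher on the log2 scale, with adjusted p of at most 2.03e-05. Tat had 211 counts in the CD54+CD31- libraries and 2 in the P2 libraries, a normalized ratio of 141 with an exact 95% counting interval of 38.5 to 1169. These comparisons share the CD54+CD31- libraries and are not independent of each other. With the size factors deposited by the authors, 61.8% of the genes called against P2 were higher in CD54+CD31- cells, compared with 51.7% here.

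Asl, Ass1 and Arg1 kept a larger share of their level outside CD54+CD31- cells than Alb did. Asl was at 137.9, 148.5 and 152.4 CPM in CD54+CD31- cells, at 10.9, 11.7 and 11.5 CPM in CD31+ cells and at 12.29, 12.01 and 11.996 CPM in P2 cells. These levels were 7.48 to 8.02% of the CD54+CD31- mean in CD31+ cells and 8.20 to 8.40% in P2 cells, where Alb was at 1.04 to 1.08% and 0.843 to 0.882%. Ass1 was at 6.79, 8.09 and 5.48 CPM in CD31+ cells and at 20.2, 25.1 and 20.3 CPM in P2 cells, or 2.46 to 3.62% and 9.04 to 11.3% of the CD54+CD31- mean. Arg1 was at 2.43 to 3.63% in CD31+ cells, as Ass1 was, and at 2.08 to 2.74% in P2 cells. Fbp1 was at 2.59 to 9.98% in CD31+ cells and 1.87 to 5.04% in P2 cells, on levels of at most 0.206 CPM. Otc, by contrast, was at 1.09 to 1.82% and 0.840 to 1.15%, near Alb in both populations. Whether these shares differ from that of Alb was not tested.

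Between the other populations, Ass1 was lower in CD31+ than in P2 cells (log2 fold change -1.68 ± 0.14, adjusted p = 2.33e-06), while Otc (0.58 ± 0.18, adjusted p = 0.0144) and Gys2 (0.71 ± 0.10, adjusted p = 0.000112) were higher. In this comparison 73.7% of all genes were called, 39.4% higher and 34.3% lower, and Alb was 0.31 ± 0.08 higher. Other hepatocyte transcripts were higher too. Among 11 tested hepatocyte markers 9 were called higher and 0 lower, with a median of 0.43 on the log2 scale. All 7 tested genes of the hepatocyte set used in place of Alb were called higher, with a median of 0.59. Whether Otc and Gys2 differ from these genes was not tested. The higher calls of members depended on scaling and libraries. With the authors' size factors, which shift the median of all genes to 0.50 from 0.13 and make 66.1% instead of 53.4% of the called genes higher, 5 members were called higher, and with all 12 libraries in one fit none was, also at an unadjusted p below 0.05. The Otc call was lost without CD31+ replicate 2 or 3 or P2 replicate 1 or 2 (adjusted p = 0.0676, 0.0987, 0.0522 and 0.0518). Cps1, not called here, was called higher without CD31+ replicate 2 (adjusted p = 0.00268) or P2 replicate 2 (adjusted p = 0.0415), with DESeq2 (adjusted p = 0.0124), without a low count filter (adjusted p = 0.0436) and with at least 10 counts in every library (adjusted p = 0.0384).

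**Figure D5:**
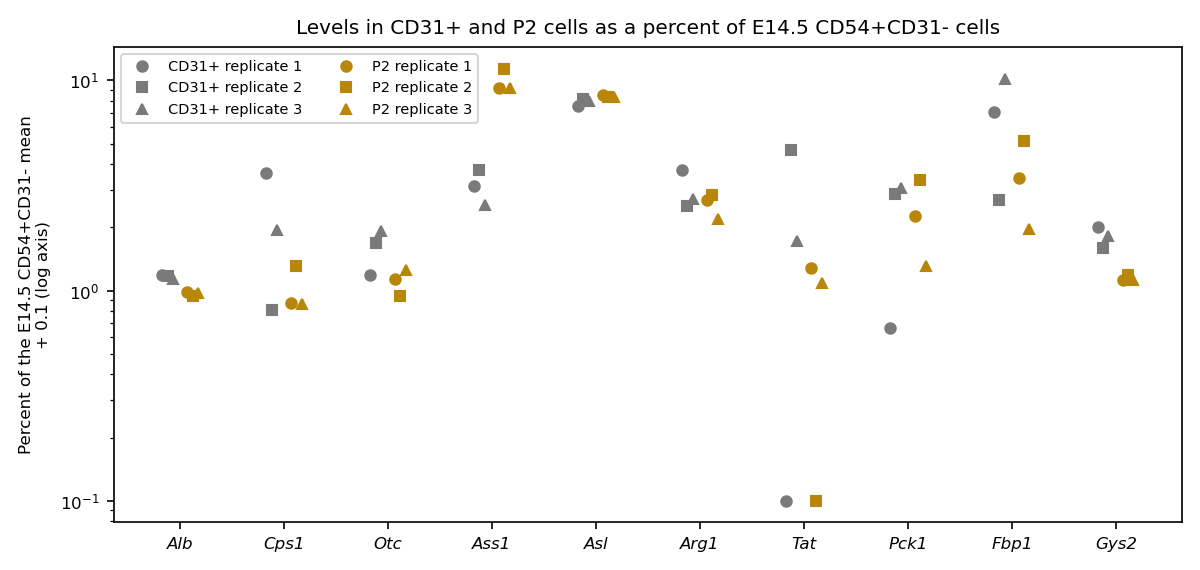
Level of Alb and of 9 enzymes in CD31+ (grey) and P2 (gold) libraries at E14.5 as a percent of the E14.5 CD54+CD31- mean, plus 0.1, on a log axis. Alb lies near 1%, Asl near 8% in both populations, and Ass1 near 3% in CD31+ and near 10% in P2 cells.

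Several members have a related gene that catalyses the same reaction in other tissues or compartments. Arg2, the mitochondrial arginase, was at 0.736, 0.472 and 0.420 CPM at E14.5 and at 7.03, 4.13 and 3.99 CPM at E18.5 (log2 fold change 3.40 ± 0.38, adjusted p = 0.000266). Unlike Arg1, it was highest in E18.5 replicate 1, at 173% of the mean of replicates 2 and 3. Gys1, the glycogen synthase of muscle and other tissues, rose from 18.0, 14.7 and 13.7 CPM to 85.6, 66.4 and 69.2 CPM while Gys2 fell (2.43 ± 0.17, adjusted p = 4.93e-05). It was also highest in replicate 1, at 126%. Without that library the log2 fold changes were 3.07 for Arg2 and 2.29 for Gys1, both called.

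Pck2, the mitochondrial counterpart of Pck1, was at 30.9, 42.8 and 34.6 CPM at E14.5 and at 21.3, 21.4 and 20.9 CPM at E18.5 (log2 fold change -0.58 ± 0.13, adjusted p = 0.00555). At E14.5 it was highest in P2 cells, at 76.0, 71.7 and 75.8 CPM. G6pc3, the widely expressed counterpart of G6pc, was at 5.80, 5.92 and 5.97 CPM at E14.5 and at 4.98, 4.49 and 3.92 CPM at E18.5 (-0.21 ± 0.16, adjusted p = 0.260), and G6pc2 never exceeded 0.234 CPM. Fbp2, the muscle enzyme, was at most 0.157 CPM at E14.5 and at 0.557, 0.867 and 0.817 CPM at E18.5 (2.90 ± 0.45, adjusted p = 0.00119). Without replicate 1 the log2 fold changes were -0.60 for Pck2 and 3.06 for Fbp2, both called, and -0.32 for G6pc3 (adjusted p = 0.109).

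Further genes of these pathways were examined as lists. Without E18.5 replicate 1, 36.8% of all genes were called higher and 35.9% lower, which holds for every list below. Relative to Alb, DESeq2 called 2436 of 15863 genes higher and 74 lower. Of 13 genes of nitrogen handling, 12 were tested, of which 1 rose, 5 fell and 6 did not pass, beside 35.9% and 33.5% of all genes, with a median log2 fold change of -0.61 against 0.03 over all genes. Nags, which makes the activator of Cps1, was at 43.7, 47.4 and 41.04 CPM at E14.5 and at 1.18, 7.73 and 9.15 CPM at E18.5 (log2 fold change -2.69 ± 0.65, adjusted p = 0.00891), opposite to Cps1. Glud1, the glutamate dehydrogenase, fell from between 3385 and 3673 CPM to 116, 454 and 555 CPM (-3.07 ± 0.55, adjusted p = 0.00247). Slc25a15, which carries ornithine into the mitochondrion, fell as Otc did (-2.62 ± 0.41, adjusted p = 0.00125). Arg2 was the gene that rose. Oat was listed at 0 in all 12 libraries, as were Hpd of tyrosine breakdown and Alas2, the heme synthesis enzyme of erythroid cells, also in P2 cells, while the transferrin gene Trf was at most 0.201 CPM. A listed 0 is therefore not read here as absent expression. Without E18.5 replicate 1, 2 rose and 5 fell, and the log2 fold changes were -2.22 for Nags, -2.65 for Glud1 and -2.26 for Slc25a15, all called. With Alb as the library scale 1 was higher and 0 lower in edgeR, beside 28.4% and 0.132% of all genes. The counts were 2 and 0 at an unadjusted p below 0.05, and 0 and 0 called by DESeq2. The median was 0.84 against 2.64 over all genes. On this scale 4 were higher and 5 lower without replicate 1, beside 44.3% and 20.8% of all genes.

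Of 12 tested genes of gluconeogenesis and glucose handling, 4 rose and 2 fell, beside 35.9% and 33.5% of all genes, with a median log2 fold change of -0.28. Pfkfb1, the liver isoform of an enzyme that tunes glycolysis against gluconeogenesis, rose by 2.41 ± 0.74 on the log2 scale (adjusted p = 0.0238) and Pcx, the pyruvate carboxylase, by 1.43 ± 0.29 (adjusted p = 0.00421). Gpi1, the glucose phosphate isomerase (-0.62 ± 0.20, adjusted p = 0.0267) and Pck2 fell. Without replicate 1, 5 rose and 4 fell, and the log2 fold changes were 2.91 for Pfkfb1, 1.69 for Pcx and -0.45 for Gpi1, all called. With Alb as the library scale 2 were higher and 0 lower in edgeR, beside 28.4% and 0.132% of all genes. The counts were 5 and 0 at an unadjusted p below 0.05, and 5 and 0 called by DESeq2. The median was 2.32. On this scale 5 were higher and 1 lower without replicate 1, beside 44.3% and 20.8% of all genes. The Pfkfb1 call was lost without any one library other than E18.5 replicate 1, and that of Gpi1 without any E14.5 library or E18.5 replicate 2.

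Of 12 genes of glycogen metabolism 5 rose and 1 fell, beside 35.9% and 33.5% of all genes (median log2 fold change 0.21). Ppp1r3b, the hepatic targeting subunit that brings protein phosphatase to glycogen, was at 18.5, 17.6 and 22.8 CPM at E14.5 and at 272, 281 and 303 CPM at E18.5 (log2 fold change 4.05 ± 0.13, adjusted p = 1.21e-05). Its relative Ppp1r3c rose from 2.63, 3.05 and 3.87 CPM to 31.5, 37.1 and 36.9 CPM (3.65 ± 0.16, adjusted p = 1.57e-05). In both, replicate 1 was at 93.1% and 85.1% of the other E18.5 libraries, far from the 7.37% of Gys2. Phka2, a subunit of phosphorylase kinase, fell by 0.86 on the log2 scale (SE 0.11, adjusted p = 0.000410). Without replicate 1, 5 rose and 2 fell, and the log2 fold changes were 4.06 for Ppp1r3b, 3.70 for Ppp1r3c and -0.83 for Phka2, all called. Relative to Alb, 4 were higher and 0 lower in edgeR, beside 28.4% and 0.132% of all genes. The counts were 6 and 0 at an unadjusted p below 0.05, and 1 and 0 called by DESeq2. The median was 2.99. On this scale 8 were higher and 1 lower without replicate 1, beside 44.3% and 20.8% of all genes.

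Of 17 tested genes of amino acid catabolism 1 rose and 8 fell, beside 35.9% and 33.5% of all genes, with a median log2 fold change of -1.51. In the same libraries 4 of 11 hepatocyte markers fell, with a median of -1.18. Gldc, of the glycine cleavage system, was at 535, 534 and 542 CPM at E14.5 and at 5.08, 37.2 and 49.95 CPM at E18.5 (-3.95 ± 0.77, adjusted p = 0.00338). Kmo of the tryptophan pathway (-3.23 ± 0.86, adjusted p = 0.0137) and Aass of lysine breakdown (-2.90 ± 0.58, adjusted p = 0.00385) also fell. Tdo2, the first enzyme of hepatic tryptophan breakdown, was the gene that rose, from at most 0.395 CPM to 1.56, 1.35 and 1.26 CPM (2.92 ± 0.54, adjusted p = 0.00269), and it was highest in replicate 1. Without replicate 1, 4 rose and 11 fell, and the log2 fold changes were -3.46 for Gldc, -2.69 for Kmo, -2.46 for Aass and 2.80 for Tdo2, all called. With Alb as the library scale 1 was higher and 0 lower in edgeR, beside 28.4% and 0.132% of all genes. The counts were 1 and 1 at an unadjusted p below 0.05, and 1 and 2 called by DESeq2. The median was -0.11. On this scale 6 were higher and 10 lower without replicate 1, beside 44.3% and 20.8% of all genes.

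Among 17 hormone receptors and regulators of these genes 5 rose and 5 fell, beside 35.9% and 33.5% of all genes (median log2 fold change 0.12). Gcgr, the glucagon receptor, was at 32.5, 26.3 and 28.9 CPM at E14.5 and at 0.310, 4.61 and 6.41 CPM at E18.5 (log2 fold change -2.78 ± 0.85, adjusted p = 0.0233). Creb3l3, a hepatocyte transcription factor of fasting, fell by 2.39 ± 0.77 (adjusted p = 0.0294) and Foxa3, a forkhead factor, by 2.93 ± 0.62 (adjusted p = 0.00520) on the log2 scale. The calls of Gcgr and Creb3l3 were lost without any one E14.5 library or without E18.5 replicate 2. Nr3c1, the glucocorticoid receptor, rose from 103, 108 and 119 CPM to 171, 175 and 179 CPM (0.86 ± 0.09, adjusted p = 0.000179), Cebpb from 5.49, 7.37 and 5.68 CPM to 11.7, 12.9 and 11.0 CPM (1.13 ± 0.15, adjusted p = 0.000685), and Foxa1 by 0.80 ± 0.19 (adjusted p = 0.00786). In E18.5 replicate 1 these 3 genes stood at 96.7%, 97.8% and 147% of the other E18.5 libraries, whereas Gcgr stood at 5.62%. Without replicate 1, 7 rose and 5 fell, and the log2 fold changes were -2.24 for Gcgr, -1.88 for Creb3l3, -2.47 for Foxa3, 0.85 for Nr3c1, 1.12 for Cebpb and 0.57 for Foxa1, all called. Relative to Alb, 2 were higher and 0 lower in edgeR, beside 28.4% and 0.132% of all genes. The counts were 6 and 0 at an unadjusted p below 0.05, and 2 and 0 called by DESeq2. The median was 2.42. On this scale 10 were higher and 5 lower without replicate 1, beside 44.3% and 20.8% of all genes.

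Of 8 genes known to respond to glucocorticoids 5 rose and 1 fell, beside 35.9% and 33.5% of all genes, with a median log2 fold change of 2.78. Zbtb16 went from 0.821, 1.48 and 0.642 CPM to 127, 115 and 114 CPM (7.12 ± 0.32, adjusted p = 1.57e-05) and Klf9 from 3.23, 3.05 and 3.41 CPM to 99.6, 83.1 and 83.6 CPM (4.97 ± 0.13, adjusted p = 1.21e-05). Dusp1 rose by 3.82 ± 0.34 (adjusted p = 0.000103), and Mt2 fell by 3.17 ± 0.90 on the log2 scale (adjusted p = 0.0173). Replicate 1 held 110.3% of Zbtb16, 119.5% of Klf9 and 151% of Dusp1 but 4.62% of Mt2. The counts were the same without replicate 1, and the log2 fold changes were 7.07 for Zbtb16, 4.85 for Klf9, 3.56 for Dusp1 and -2.63 for Mt2, all called. Relative to Alb, 5 were higher and 0 lower in edgeR, beside 28.4% and 0.132% of all genes. The counts were the same at an unadjusted p below 0.05, and 0 and 1 called by DESeq2. The median was 5.67. On this scale 5 were higher and 1 lower without replicate 1, beside 44.3% and 20.8% of all genes. Whether hepatocytes or the other cells of the E18.5 sort carried the genes that were not low in replicate 1 was not tested.

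The genes with the most similar pattern were sought over all 12 libraries by Pearson's r of log2(CPM + 1) among 13196 genes, as a description. The nearest gene was Hsd17b13 for Cps1 (r = 0.996), Sall1 for Otc (0.999), Gpam for Ass1 (0.994), Aspdh for Asl (0.998), C4b for Arg1 (0.997), Asgr1 for Tat (0.998), Inhbe for Pck1 (0.995), Cyp2j5 for Fbp1 (0.995), Serpina4-ps1 for G6pc (0.999) and Aldh8a1 for Gys2 (0.999). The second nearest were Uox for Cps1, Bbox1 for Otc, Cat for Ass1, Il22ra1 for Asl, Mat1a for Arg1, Ces1c for Tat, Erich5 for Fbp1, Cyp2c69 for G6pc and Lipc for Gys2, with r between 0.993 and 0.999. No pair of members shared a nearest gene. The 12 libraries form 4 groups, so these values follow mainly the group means.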

How the data were processed

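The libraries are strand-specific total RNA libraries for small cell numbers, from which rRNA fragments were removed. Per the labels and the study's methods, the authors trimmed reads with cutadapt 1.11, aligned them to GRCm38 with STAR 2.5.0a and counted reads per gene with featureCounts 1.4.6-p3. The study's methods describe only the E14.5 libraries, and the strand setting of the counting is not given in the sources used here. Each deposited file holds raw counts per gene, which were used here, and a score, namely the count divided by a size factor and rounded by the authors, which served only to recover their size factors for an alternative scaling. Depth was 40714017 to 64368883 counts per library.

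Counts were tested in edgeR 4.0.16 under R 4.3.3 (TMM scaling, filterByExpr, quasi-likelihood test, Benjamini-Hochberg adjustment over all genes tested, threshold 0.05). The SE of a log2 fold change is its absolute value divided by the square root of the F statistic of the test. It is thus calculated back from the test and not estimated separately. The age comparison used the 6 CD54+CD31- libraries and the comparisons at E14.5 used 9. For the comparison relative to Alb, each library's Alb count replaced its size. CPM values use TMM sizes over 12 libraries, and CPM per kb the merged exon length of GENCODE vM21. Promoters came from RefSeq (GRCm38.p6) and matched 6 of 10 members by symbol. In simulated data for the age comparison (14235 genes, 186 of them changed), 93 genes with 4-fold and 50 with 2-fold changes were called, as were 10 unchanged genes. Both ages were simulated from the E14.5 means, with a single dispersion for all genes and no deviating library. In the real comparison 69.4% of genes were called and E18.5 replicate 1 stood apart. The simulation thus does not measure how the test performs there. Replicates of a group differed beyond counting noise (lowest chi-square over its degrees of freedom 42.0), so none was a copy of another. This check cannot tell separate embryos from separate preparations of the same cells. Each library was counted as a sample of its own because the labels describe the replicates as biological. Deviations from group means of same-numbered libraries correlated above 0.1 in all pairs between E14.5 CD54+CD31- and CD31+ cells (r = 0.359, 0.279 and 0.143). Between CD31+ and P2 cells r was -0.007, 0.059 and 0.360. Libraries with different numbers were not correlated, so these values cannot show whether the numbers pair samples.

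The members, the gene lists and the marker lists were chosen with earlier results of these data known. From each list the text names up to 3 called genes per direction with the largest change and a mean of at least 1 CPM at one of the ages, all paralogs, marker genes, and the 2 genes most similar to each member among those averaging at least 1 CPM. The values of 2 genes that this rule names are not reported here. Icam1, Kit, Oat and Hpd were added after their values were seen. Alternatives were other size factors, filters, DESeq2 1.42.0, a replicate block, joint fits, and leaving out each library. The exact permutation test and the ratios between members were added after seeing the data. Intervals cover counting error only.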

Additional observations from a re-analysis of the deposited data

How the results depend on the processing

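Of the values of single genes, 981 kept their direction and their side of the threshold under an alternative, 46 lost a call, 19 gained one and 12 changed sign. Of the counts of genes or members, 187 stayed within 1.5 times the main count and 20 did not. All 12 sign changes concerned values that had not passed the test in the main fit. With the changed sign, Asl was called higher in CD31+ than in P2 cells under the authors' size factors in edgeR (adjusted p = 0.00428). In the age comparison the number of members called higher was 3 to 5 when a library was left out, being 5 without E18.5 replicate 1, and that of members called lower was 2 to 3. Ass1 had a log2 fold change of 0.023 with the authors' size factors and of -0.50 to 0.050 when a library was left out, and Pck1 of -1.14 to 0.050, the positive values being those without E18.5 replicate 1. G6pc3 turned to 0.021 with the authors' factors, which moved the median of all genes from 0.03 to 0.27. Arg1 was called higher by DESeq2 (adjusted p = 0.0418). Gys2 was not called with the authors' factors, without genes above 1% of a library, or with at least 10 counts in every library (adjusted p = 0.0588, 0.0530 and 0.0561).

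The replicate numbers of the 2 ages share only a number, with r between 0.013 and 0.052. With a replicate block Cps1 (log2 fold change 3.52, adjusted p = 0.0605) and Gys2 (-2.81, adjusted p = 0.0514) were not called, and 10329 genes were called instead of 11014. A block changed no call of a member in the comparison of E14.5 CD54+CD31- with CD31+ cells.

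For CD31+ against P2 cells, 5 members were called higher with the authors' factors, 0 with all 12 libraries in one fit (edgeR), 1 with only the 6 libraries compared, and 1 to 2 when a library was left out. Asl turned to 0.29 with the authors' factors and 0.064 with at least 10 counts in every library, and Pck1 to 0.32 with the authors' factors, and ranged from -0.41 to 0.40 when a library was left out, being 0.40 without CD31+ replicate 1 and 0.36 without P2 replicate 2. Relative to Alb, 4521 genes were called, against 2510 with DESeq2, 2550 with at least 10 counts in every library, 2009 with a replicate block, and 306 to 10453 when a library was left out. Members called higher were 5 with DESeq2 and 1 to 6, and members called lower 0 to 3, when a library was left out. Asl ranged from -1.44 to 0.043 when a library was left out, being positive without E18.5 replicate 2 or 3, and Pck1 turned to -0.057 with summed hepatocyte transcripts in place of Alb. The causes were not tested. Depth limits G6pc, Tat, Pck1 and Fbp1 in CD31+ and P2 cells, where a total of 3 counts over a group corresponds to 0.0172 and 0.0209 CPM.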
